A study of Mus musculus with 20 samples.

Results

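Sialic acids are acidic sugars that cap the ends of glycan chains on cell surface and secreted glycoproteins and glycolipids. N-acetylneuraminic acid (Neu5Ac) is often joined in α linkage to carbon 3 or carbon 6 of galactose, or to carbon 6 of N-acetylgalactosamine. In the α2-6 form it ends many N-glycans of serum proteins and of B cells. Natural antibodies are immunoglobulins, mostly IgM, that circulate without deliberate immunisation, and mice carry α2-6 sialic acid on their own glycoproteins. The data described here are the signals that serum antibodies of BALB/c mice gave on printed glycans that hold Neu5Ac in α2-6 linkage and no fucose.

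Among the 419 compounds of the printed glycan array, 14 were chosen by their written structure, which had to hold Neu5Acα2-6 and neither O-sulfate, fucose, N-glycolylneuraminic acid (Neu5Gc) nor α2-8 linked sialic acid. The rule reads structures and no signal, but it was chosen with earlier results of these data known. An N-glycan whose structure is written with Sia2-6 (627, with 2 sialylated antennae) does not hold that string and was not counted among the 14. Serum of BALB/c mice aged 10 weeks, an inbred strain kept free of specific pathogens and given no treatment, was tested on 1 array for each mouse, and bound IgG and IgM were detected together, through a biotinylated secondary antibody and Cy5-labelled streptavidin. The groups of the labels are the sexes, 13 females and 7 males. The deposited arrays of mouse 44 and mouse 45, both female, were identical in all 2664 spots (at most 17 spots for any other pair), and they were counted as 1, which leaves 19 mice, 12 females and 7 males. Mice are named by the number in their label. The signal of a compound in a mouse is the median of its 6 spots in relative fluorescence units (RFU), and 4000 RFU is the threshold that the study set for binding.

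The 14 glycans differ in the sugar under the sialic acid. The shortest are the disaccharides Neu5Acα2-6Galβ-sp3 (170), Neu5Acα2-6GalNAcα-sp3 (172) and Neu5Acα2-6GalNAcβ-sp3 (205), where sp3 is an aminopropyl spacer. Glycan 172 is sialyl-Tn (SiaTn), an O-glycan known as a tumour-associated antigen in humans. On O-glycan cores the array held Neu5Acα2-6(Galβ1-3)GalNAcα-sp3 (289), its anomer Neu5Acα2-6(Galα1-3)GalNAcα-sp3 (290), Neu5Acα2-6Galβ1-3GalNAcα-sp3 (338) and the disialylated Neu5Acα2-6(Neu5Acα2-3)GalNAcα-sp3 (309) and Neu5Acα2-6(Neu5Acα2-3Galβ1-3)GalNAcα-sp3 (433). On lactose it held 6'-sialyllactose (6'SL), Neu5Acα2-6Galβ1-4Glcβ, on an aminoethyl spacer (295) and on a glycyl spacer (296). The lactosamine forms were 6'-sialyllactosamine (6'SLN), Neu5Acα2-6Galβ1-4GlcNAcβ-sp3 (300), which is the common end of N-glycans, and 9-NAc-Neu5Acα2-6Galβ1-4GlcNAcβ-sp3 (306), which carries an N-acetyl group on carbon 9 of the sialic acid. The type 1 chain Neu5Acα2-6Galβ1-3GlcNAc-sp3 (323), for which the table does not give the inner anomer, and the milk oligosaccharide LSTb, Neu5Acα2-6(Galβ1-3)GlcNAcβ1-3Galβ1-4Glcβ-sp4 (529), complete the set.

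The arrays differed in overall signal. Array medians, taken over all compounds, lay between 126.5 and 1504.5 RFU, and the median of the buffer spots, printed without glycan, lay between 93.5 and 2044.5 RFU. Single buffer spots could be far brighter: the brightest of an array had 3265 RFU (mouse 48) to 64517 RFU (mouse 56). The arrays fell into 2 sets by the ratio of the peptides 902 and 900, a split seen in the values and named by no label. The ratio was 0.631 to 1.861 on 9 arrays (7 females and 2 males), with array medians of 126.5 to 411.5 RFU, and 0.011 to 0.056 on the other 10 (5 females and 5 males), with array medians of 603 to 1504.5 RFU. Where a pair of glycans passed its test on 1 of the sets only, or passed with opposite signs on them, the values within each set are given beside it. On 3 arrays, those of mouse 20, mouse 42 and mouse 56, the third and the sixth spots of all compounds were dim, with medians of 63 to 136 RFU against 386 to 1091 RFU for the other 4 spots.

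Most of the α2-6 glycans were not bound. Of the 14, 5 reached 4000 RFU in at least 1 mouse, against 54.9% of the 419 compounds, and the other 9 in none of the 19 mice (for each of these, 0 of 19 mice, exact 95% interval up to 17.6%). Of their 266 values, 6 were at or above 4000 RFU (2.26%), and the share over all compounds was 13.6%. These 6 values came from 4 mice, females 42 and 65 and males BALB/c-104 and BALB/c-106, and in 15 mice no α2-6 glycan reached the threshold. The median over mice ran from 151 RFU for the disialylated core 433 to 885.5 RFU for the 9-N-acetyl form 306, and the median of the 14 medians was 247.25 RFU, against 635.5 RFU over all compounds. The 5 of 14 are 35.7%, against 8 of 21 (38.1%) printed α2-3 Neu5Ac glycans without fucose, sulfate or α2-6 sialic acid, which had 5.76% of their values at or above 4000 RFU and a median of medians of 357 RFU. Within the arrays, 13 of the 14 had a median rank below the 50th percentile of compounds. The buffer spots were often as bright: 55 of the 266 values (20.7%) exceeded the buffer median of their array, against 56.3% of the values of all compounds. The scanner software marked 27.9% of the spots of the 14 glycans as not found, and 19.8% of the spots of all compounds.

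**Figure D1:**
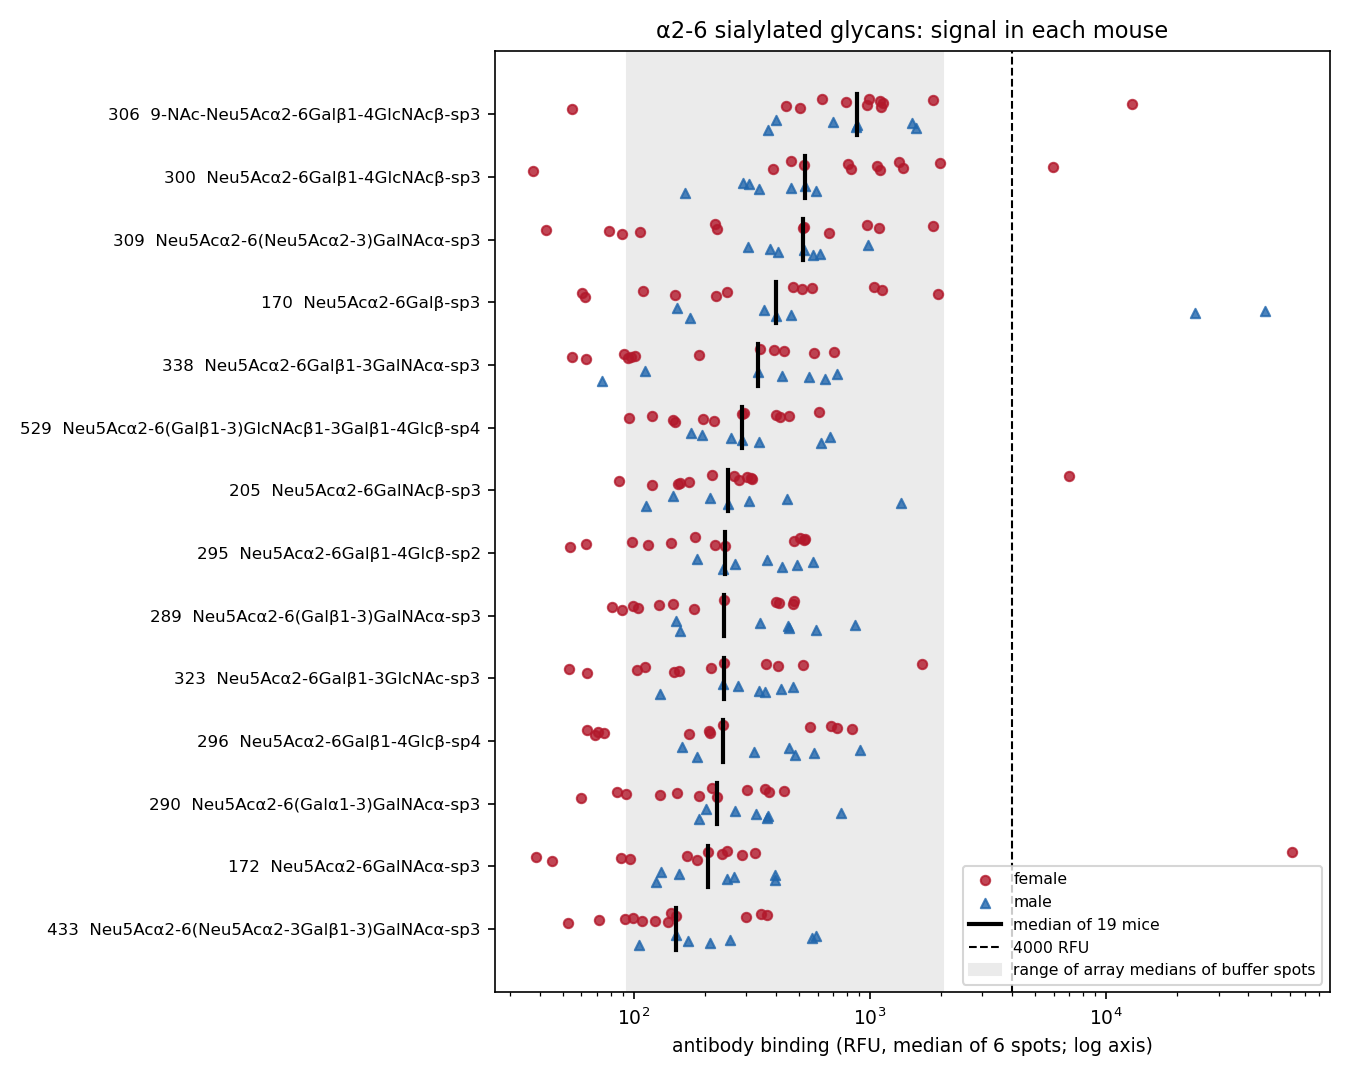
Signal of the 14 α2-6 glycans in each of the 19 mice (RFU on a log axis, 1 point per mouse, females as circles above males as triangles, black bar for the median of 19 mice, dashed line at 4000 RFU, grey band for the range of the buffer medians of the arrays). Only 6 points lie to the right of the line, and the medians run from 151 to 885.5 RFU, inside the grey band.

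Sialyl-Tn (172) was bound by 1 serum. It gave 61306.5 RFU in female 65, and in the other 18 mice the signal was at most 397.5 RFU. The median was 207 RFU ± 81 (MAD, n = 19 mice). The 6 spots of female 65 lay between 59625 and 63476 RFU and each held saturated pixels, so that this signal is a lower bound. On the same array the β anomer 205 gave 6954 RFU, with spots from 5265 to 9940 RFU. No other female exceeded 315.5 RFU for glycan 205, and the brightest male, mouse 53, had 1354 RFU. The serum of female 65 bound some further glycans that hold GalNAc, and not others. It gave 26866 RFU on the Neu5Gc form of sialyl-Tn (174), for which no other mouse exceeded 709.5 RFU. It gave 10899.5 RFU on the β2-6 form (173) and 9237 RFU on Tn, GalNAcα-sp3 (005), the sugar without sialic acid. The α2-3 isomer (171) had 2823 RFU in this mouse. The last 3 glycans were brighter in another mouse, glycan 173 with 17124.5 RFU in female 87 and 11766 RFU in female 88, Tn with 9275 RFU in male 48 and glycan 171 with 4510 RFU in male 56. Glycans 289, 290, 338 and 433, which hold GalNAcα as well, had 346 to 477 RFU in female 65, and glycan 309 had 974.5 RFU. Of the 7 β2-6 glycans in the pairs below, only 173 reached 4000 RFU in this mouse. Female 65 also had the highest signal for the type 1 chain 323, 1664.5 RFU, against at most 520.5 RFU in the other mice, below the threshold.

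The disaccharide Neu5Acα2-6Galβ (170) was bound by 2 sera. Male BALB/c-106 gave 46981 RFU and male BALB/c-104 gave 23808 RFU, with spots from 30712 to 61912 RFU and from 18211 to 40322 RFU. The next mouse, female 37, had 1945 RFU, and the median was 401 RFU ± 248 (MAD, n = 19). The other 5 males lay between 153 and 465.5 RFU, inside the range of the 12 females, 60.5 to 1945 RFU. The α2-3 isomer 169, the glycan of ganglioside GM4, had 2507 RFU in male BALB/c-106 and 4276 RFU in male BALB/c-104. Both sera gave at most 724 RFU on Neu5Acα2-6Galβ1-3GalNAcα (338), at most 906 RFU on the 6'-sialyllactoses and at most 530.5 RFU on 6'SLN (300), all of which hold the same Neu5Acα2-6Galβ end. On α2-3 isomers of longer chains, male BALB/c-106 gave 39290.5 RFU (292), 36138 RFU (299), 44428.5 RFU (298) and 904.5 RFU (294). The buffer median of this array was 2044.5 RFU, the highest of the 19.

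6'SLN (300) and its 9-N-acetyl form (306) were bound by the serum of female 42. It gave 5987 RFU on glycan 300 and 12938.5 RFU on glycan 306, and the next highest mouse for both was female 90, with 1974 and 1852 RFU. The third and sixth spots of both glycans held 5 to 29 RFU on this array, 2 of the positions that were dim for all compounds there. Over the other 4 spots the medians were 10106 RFU for glycan 300 and 13900.5 RFU for glycan 306. The same serum gave 6394 RFU on the form of 6'SLN with an α1-2 fucose on galactose (441), the highest of 19 mice, and 2844 RFU on 3'-sialyllactosamine (298). Outside female 42, glycan 306 had 54.5 to 1852 RFU and exceeded the buffer median in 13 of 19 mice in all, the most of the 14 glycans. Glycan 300 exceeded it in 9 mice, glycan 170 in 7 and glycan 309 in 6, and each of the other 10 glycans in at most 5.

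The 9 glycans that never reached the threshold had medians below that of the buffer spots, 577.5 RFU as the median over the 19 arrays. The highest signal of 7 of them was below 1000 RFU. That of glycans 309 and 323 was 1847.5 RFU (female 90) and 1664.5 RFU (female 65), 2.77 and 2.88 times the buffer median. Without the third and sixth spots, glycan 289 had 2566.5 RFU in female 17 and 1047 RFU in male BALB/c-106. Its 6 spots in female 17 ran from 26 to 7525 RFU. The medians were 242 RFU ± 152.5 for 289, 225.5 RFU ± 104.5 for 290, 337 RFU ± 240 for 338 and 151 RFU ± 59.5 for 433, the glycans on O-glycan cores (MAD, n = 19 mice each). They were 243 RFU ± 144.5 and 238.5 RFU ± 170 for the 6'-sialyllactoses 295 and 296, 287.5 RFU ± 114 for LSTb, 240.5 RFU ± 121 for 323 and 520.5 RFU ± 296 for the disialylated 309. The negative control trehalose-ethanolamine had 238.5 RFU as the median over mice.

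To see which parts of the structure went with the signal, each α2-6 glycan was set against printed compounds that differ from it by 1 named change, in the same mouse. The difference was taken as log2 RFU of the α2-6 glycan minus that of its partner, with values under 100 RFU set to 100, and tested with a two-sided permutation test of 100000 sign flips over the 19 mice. P-values were adjusted over all 38 pairs, many of which share a glycan, and the smallest adjusted value that these flips gave was 7.6e-05. At an adjusted p under 0.05, the α2-6 glycan was lower than its partner in 17 pairs and higher in 5, and 16 pairs did not pass. When any signal weaker than the buffer median of its array was raised to that median, 12 and 2 pairs passed. In some pairs the partner holds α2-6 Neu5Ac as well. Of the pairs that passed, these are 433 minus 289, lower, and 300 minus 323, 300 minus 441 and 306 minus 300, higher. The counts therefore do not set the α2-6 linkage against other structures alone. The values in RFU are medians over 19 mice, and differences are means over mice with their 95% intervals.

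**Figure D2:**
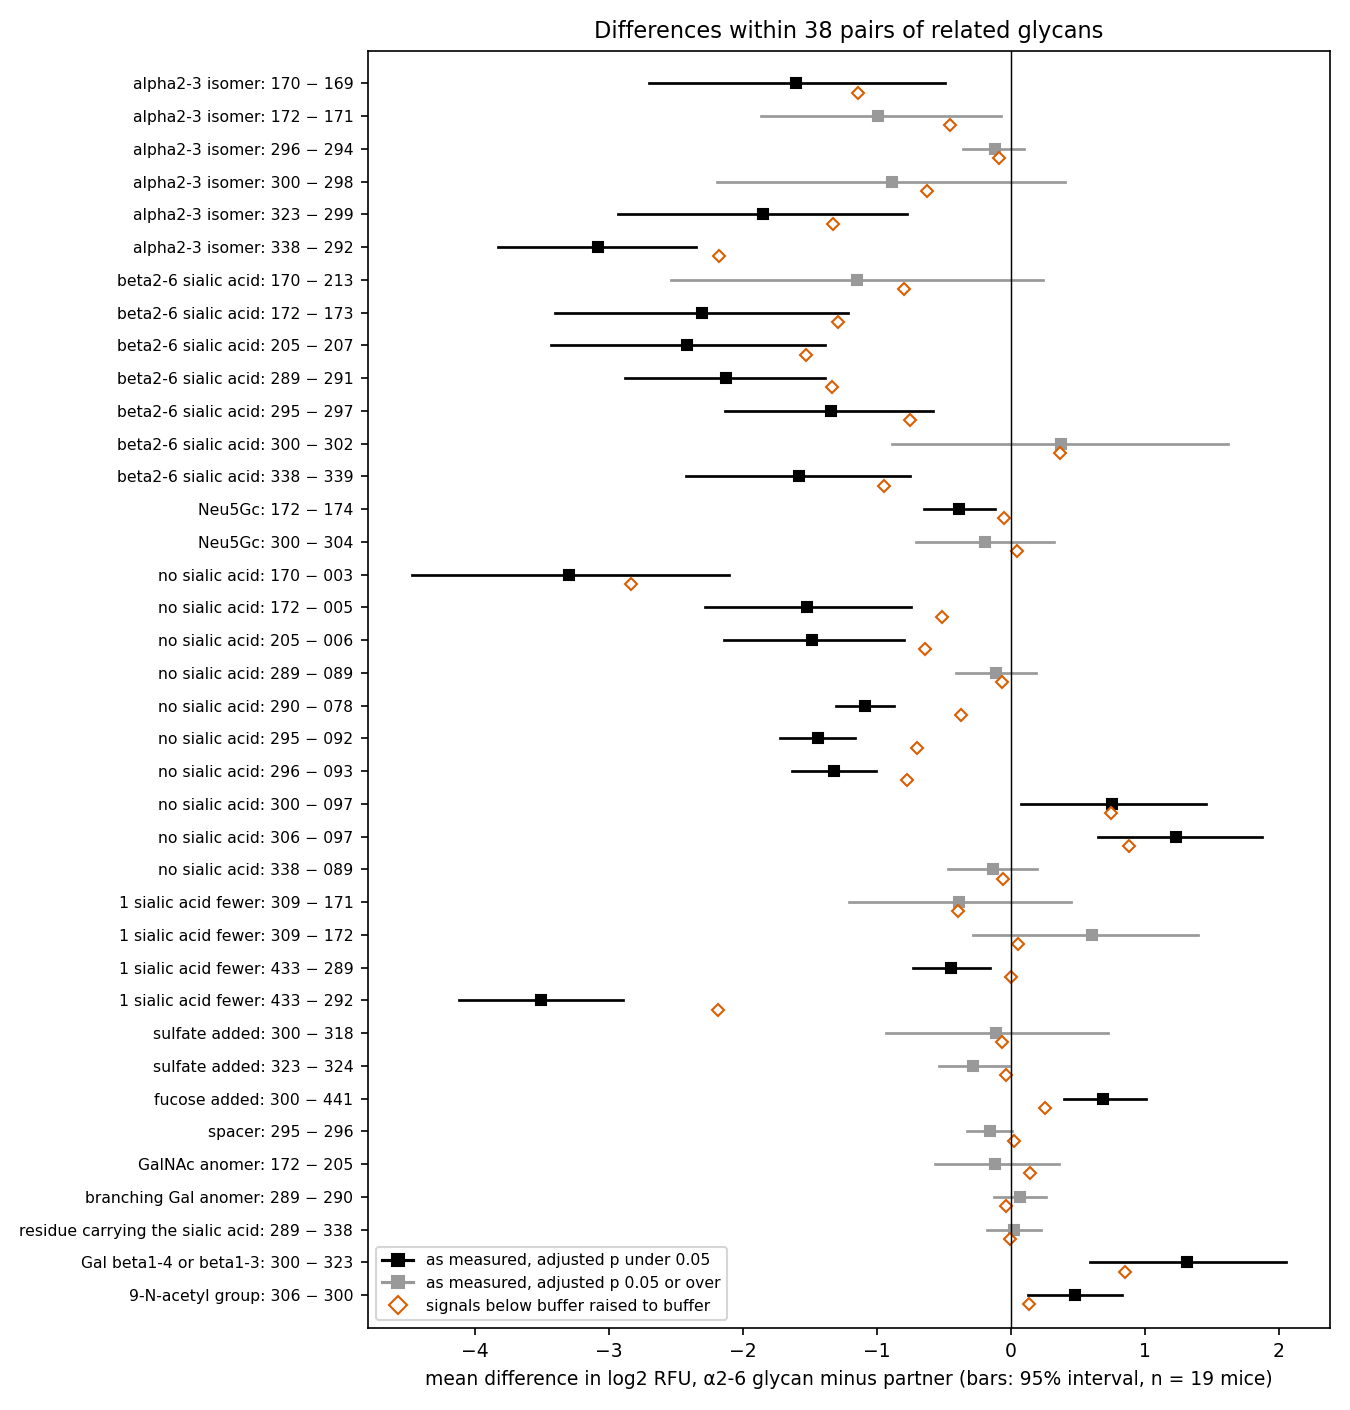
Mean difference in log2 RFU for the 38 pairs, α2-6 glycan minus partner (squares with 95% intervals over 19 mice, black where the adjusted p is under 0.05 and grey otherwise, open diamonds for the same difference with signals below buffer raised to buffer). Most black squares lie left of 0, between -3.51 and -0.39, and 5 lie right of it, between 0.48 and 1.32.

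Against the α2-3 isomers the α2-6 glycan was lower in 3 of 6 pairs. Glycan 338, with the sialic acid on carbon 6 of the galactose of the TF disaccharide Galβ1-3GalNAcα, had a median of 337 RFU and its α2-3 isomer 292 a median of 1543 RFU. It was the lower one in 19 of 19 mice, with a difference of -3.09 (-3.83 to -2.35, adjusted p = 7.6e-05, permutation test), which is 8.49-fold. Isomer 292 was bound in 4 mice, among them male BALB/c-106 with 39290.5 RFU, and glycan 338 in none. On the type 1 chain, 323 had 240.5 RFU and its isomer 299 had 811 RFU (difference -1.85, -2.93 to -0.77, adjusted p = 0.00235, permutation test), where the β anomer of 299 was taken as that of 323. This difference was -0.49 on the 9 arrays with the higher ratio (adjusted p = 0.23, permutation test) and -3.07 on the other 10 (adjusted p = 0.0164, permutation test). For the disaccharides on galactose, 170 had 401 RFU and 169 had 1709 RFU (difference -1.60, -2.70 to -0.49, adjusted p = 0.0175, permutation test). It was lower in 16 of 19 mice, and the exceptions were males BALB/c-104 and BALB/c-106 and female 37. The pair passed on the arrays with the higher ratio (-2.12, adjusted p = 0.0464, permutation test) and not on the others (-1.14, adjusted p = 0.239, permutation test). Its adjusted p was 0.0771 with signals raised to buffer and 0.0936 on log2 of RFU plus 500 (permutation tests).

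The other 3 linkage pairs did not pass over the 19 mice. Sialyl-Tn (172) differed from its α2-3 isomer 171 by -0.99 (-1.86 to -0.07, adjusted p = 0.0558, permutation test), with medians of 207 and 388 RFU, and the pair passed with female 65 left out (adjusted p = 0.000244, permutation test) and with background subtracted (adjusted p = 0.042, permutation test). The sialyllactoses on the glycyl spacer, 6'SL (296) and 3'SL (294), differed by -0.12 (-0.36 to 0.10). The interval for 6'SLN (300) minus 3'SLN (298) was wide, -2.19 to 0.40 around a difference of -0.89. Glycan 298 had 44600.5 RFU in male 82 and 44428.5 RFU in male BALB/c-106, and glycan 300 had 291 and 530.5 RFU in these mice. The pair passed on the arrays with the lower ratio (-1.60, adjusted p = 0.0354, permutation test) and had -0.10 on those with the higher ratio (adjusted p = 0.945, permutation test).

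**Figure D3:**
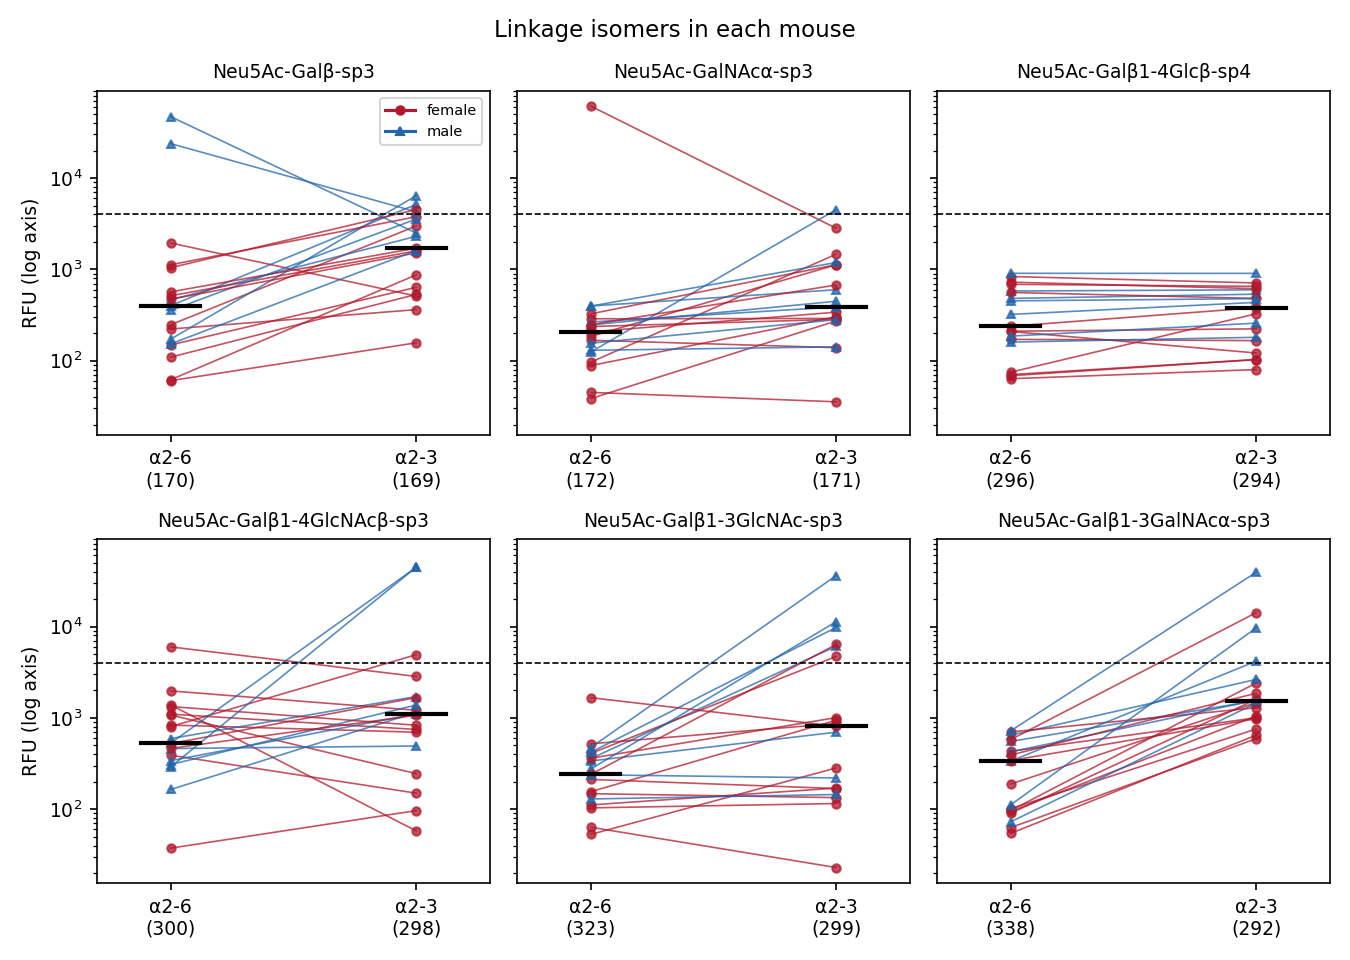
Signal of the 6 pairs of linkage isomers in each of 19 mice (RFU on a log axis, lines join the α2-6 form on the left and the α2-3 form on the right in 1 mouse, females as circles and males as triangles, black bars for medians, dashed line at 4000 RFU). All 19 lines climb to the right for Neu5Ac-Galβ1-3GalNAcα, and the lines are nearly flat for the sialyllactoses.

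The β2-6 forms gave higher signals than the α2-6 forms in 5 of 7 pairs. Sialic acid in β linkage is found in free sialic acid and in its activated donor and not at the ends of mammalian glycan chains. The difference was -2.31 (-3.40 to -1.21) for sialyl-Tn 172 against 173, -2.42 (-3.43 to -1.39) for 205 against 207 and -2.13 (-2.88 to -1.39) for 289 against 291. It was -1.34 (-2.14 to -0.58) for 6'SL 295 against 297 and -1.58 (-2.43 to -0.75) for 338 against 339, and all 5 had adjusted p between 7.6e-05 and 0.00119 (permutation test). These 5 pairs also passed with signals raised to buffer, but 295 against 297 passed only on the arrays with the lower ratio (-1.72, adjusted p = 0.00931, permutation test) and had -0.93 on those with the higher ratio (adjusted p = 0.178, permutation test). The medians of the α2-6 forms were 207 to 337 RFU, and those of the β2-6 forms 528 to 1547.5 RFU. In females 87 and 90 all 7 β2-6 glycans of these pairs were at or above 4000 RFU, from 4772 to 22312.5 RFU, and in female 17 there were 6 of them, up to 7654 RFU. The α2-6 forms had at most 1124.5, 1974 and 119 RFU in females 87, 90 and 17. No single mouse changed the call of a β2-6 pair when left out. Lactosamine was the exception among the medians: glycan 300 had 530.5 RFU and its β2-6 form 302 had 495.5 RFU (difference 0.37, -0.89 to 1.62, adjusted p = 0.586, permutation test). For Neu5Acα2-6Gal (170) against 213 the difference was -1.15 (-2.54 to 0.24, adjusted p = 0.141, permutation test).

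Sialylated glycans were lower than the same chain without sialic acid in 6 of 10 pairs and higher in 2. Neu5Acα2-6Galβ (170), with 401 RFU, was lower than Galβ (003), with 6535.5 RFU and binding in 11 of 19 mice (difference -3.30, -4.47 to -2.11, adjusted p = 0.000253, permutation test), which is 9.85-fold. The difference was -1.52 (-2.28 to -0.75) between sialyl-Tn (172) and Tn and -1.48 (-2.14 to -0.80) between 205 and GalNAcβ (006). The 6'-sialyllactoses differed from lactose by -1.44 (-1.72 to -1.16) on the aminoethyl spacer and by -1.32 (-1.63 to -1.01) on the glycyl spacer, where the lactose medians were 794 and 1054 RFU. Glycan 290 differed from Galα1-3GalNAcα (078) by -1.09 (-1.31 to -0.87). The adjusted p of these pairs ran from 7.6e-05 to 0.00228 (permutation test). With signals raised to buffer, those for sialyl-Tn and 205 were 0.141 and 0.066, and the other 4 passed. Sialyl-Tn against Tn was -0.86 on the arrays with the higher ratio (adjusted p = 0.0848, permutation test) and -2.12 on the others (adjusted p = 0.0354, permutation test).

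On the TF disaccharide (089), with a median of 272.5 RFU, sialic acid on either residue went with no difference that passed over the 19 mice, -0.11 (-0.41 to 0.19) for 289 on GalNAc and -0.14 (-0.47 to 0.20) for 338 on galactose. The pair of 338 passed on each set of arrays with opposite signs, -0.68 with the higher ratio (adjusted p = 0.0424, permutation test) and 0.35 with the lower (adjusted p = 0.0367, permutation test). On lactosamine the order turned. In the pair of 306, the partner lacks the sialic acid and its 9-N-acetyl group together. The 9-N-acetyl form 306 had 885.5 RFU and N-acetyllactosamine (097) had 340 RFU, so that 306 was higher in 17 of 19 mice, by 1.24 (0.65 to 1.87, adjusted p = 0.000253, permutation test), which is 2.36-fold. Glycan 300 was higher than 097 by 0.76 (0.08 to 1.46, adjusted p = 0.0498, permutation test), in 10 of 19 mice. This call was lost when any 1 of 10 mice was left out (females 19, 20, 37, 38, 42, 44, 65, 70 and 88 and male BALB/c-104), with adjusted p up to 0.0916, with signals raised to buffer (adjusted p = 0.0508) and within each set of arrays (1.52 with the higher ratio and 0.07 with the lower).

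A second sialic acid did not go with a higher signal in any pair that passed. The disialylated core 433 (151 RFU) was lower than the α2-3 monosialylated 292 (1543 RFU) in 19 of 19 mice, with a difference of -3.51 (-4.12 to -2.89, adjusted p = 7.6e-05, permutation test), the widest difference of the 38 pairs, 11.4-fold. It was also lower than the α2-6 monosialylated 289, with a difference of -0.45 (-0.73 to -0.16, adjusted p = 0.00853, permutation test), but 18 of 19 mice had both at or below the buffer median, and the difference was 0.0036 with signals raised to buffer. It was -0.16 on the arrays with the higher ratio (adjusted p = 0.23, permutation test) and -0.70 on the others (adjusted p = 0.0354, permutation test). Glycan 309 differed from 171 by -0.38 (-1.21 to 0.45) and from sialyl-Tn by 0.60 (-0.28 to 1.40), and the second pair passed when female 65 was left out (adjusted p = 0.0005, permutation test).

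Further pairs changed the sialic acid itself or added a sulfate or a fucose. Between Neu5Ac and Neu5Gc, sialyl-Tn differed from 174 by -0.39 (-0.65 to -0.12, adjusted p = 0.0175, permutation test) and 6'SLN differed from 304 by -0.19 (-0.71 to 0.32). The second passed on the arrays with the lower ratio (-0.67, adjusted p = 0.0143, permutation test) and was 0.34 on those with the higher (adjusted p = 0.517, permutation test). The first did not pass within either set, with the mean over spots (adjusted p = 0.127, permutation test), with background subtracted or with another log2 offset, and was -0.05 with signals raised to buffer (adjusted p = 0.92, permutation test), where 15 of 19 mice had both glycans at or below buffer. A 6-O-sulfate on GlcNAc went with differences, non-sulfated minus sulfated, of -0.11 (-0.93 to 0.72) for 300 against 318 and -0.28 (-0.54 to -0.01, adjusted p = 0.0675, permutation test) for 323 against 324, which passed without female 65 (adjusted p = 0.000431, permutation test) and with quantile normalization (adjusted p = 0.0395, permutation test). 6'SLN was higher than its α1-2 fucosylated form 441 by 0.69 (0.40 to 1.01, adjusted p = 0.000253, permutation test), in 16 of 19 mice and by nearly the same amount on both sets of arrays, 0.70 and 0.68. With signals raised to buffer this pair had an adjusted p of 0.0911. The 9-N-acetyl group went with a signal higher by 0.48 (0.13 to 0.83, adjusted p = 0.0204, permutation test) in 306 than in 300, which became 0.13 (adjusted p = 0.424, permutation test) with signals raised to buffer and 0.19 (adjusted p = 0.429, permutation test) with the mean over spots. It was 0.20 on the arrays with the higher ratio (adjusted p = 0.477, permutation test) and 0.73 on the others (adjusted p = 0.0302, permutation test).

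Among the α2-6 glycans, the type 2 chain 300 gave more signal than the type 1 chain 323, whose inner anomer is not given. In 10 of 19 mice both were at or below the buffer median. Glycan 300 was higher than 323 in 17 of 19 mice, by 1.32 (0.59 to 2.05, adjusted p = 0.000518, permutation test), and passed with signals raised to buffer (0.85, adjusted p = 0.0309, permutation test). The difference was 2.19 on the arrays with the higher ratio and 0.53 on the others. The remaining 4 pairs did not pass over the 19 mice. The aminoethyl and glycyl spacers of 6'SL differed by -0.16 (-0.33 to 0.01, adjusted p = 0.0962, permutation test), a pair that passed when female 19 (adjusted p = 0.0328) or male 56 (adjusted p = 0.0495) was left out (permutation tests) and with background subtracted (adjusted p = 0.0192, permutation test). It passed on the arrays with the lower ratio (-0.38, adjusted p = 0.00931, permutation test) and was 0.09 on those with the higher (adjusted p = 0.445, permutation test). The α and β GalNAc of 172 and 205 differed by -0.12 (-0.56 to 0.36), the β and α branching galactose of 289 and 290 by 0.07 (-0.13 to 0.26), and sialic acid on GalNAc or galactose in 289 and 338 by 0.03 (-0.18 to 0.23). Glycan 289 minus 290 was -0.22 on the arrays with the higher ratio (adjusted p = 0.183, permutation test) and 0.32 on the others (adjusted p = 0.0143, permutation test). In 15 to 18 of the 19 mice both glycans of each of these 4 pairs were at or below the buffer median.

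The sexes were compared with limma on log2 RFU over all 419 compounds. None of the 14 α2-6 glycans passed (lowest adjusted p = 0.284, and 0 of 14 at an unadjusted p under 0.05), against 1.67% of all compounds. Signals were lower in females on the whole: the median female minus male difference was -0.75 over all compounds and -0.62 over the 14 glycans, of which 3 were higher in females. With quantile normalization of the arrays the median over all compounds became 0.04 and that over the 14 glycans 0.06, with 12 of 14 higher in females, so that a direction between the sexes cannot be told apart from the level of the arrays. For 6'SLN (300) females had 37.5 to 5987 RFU with a median of 955 RFU, and males had 164.5 to 594 RFU with a median of 340.5 RFU (female minus male 1.27, 95% interval -0.01 to 2.55, limma adjusted p = 0.284). For Neu5Acα2-6Galβ (170) the female median was 360 RFU and the male median 401 RFU, with a difference of -1.67 (-3.72 to 0.37, limma adjusted p = 0.336) in which the 2 bright males weigh. Sialyl-Tn (172) had a median of 195.75 RFU in females, against 247 RFU in males, and the interval of the difference ran from -1.42 to 2.08. The groups overlapped for every one of these glycans.

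Whether a pair differed between the sexes was tested by exact permutation of the sexes over all 50388 assignments, adjusted over the 38 pairs. It did in 3 pairs, all of them with 6'SLN. The difference of 6'SLN (300) minus 3'SLN (298) averaged 0.43 in females and -3.13 in males (female minus male 3.56, adjusted p = 0.0219, exact permutation test), and glycan 300 was the higher one in 8 of 12 females and 0 of 7 males. For 300 minus its Neu5Gc form 304 the means were 0.32 in females and -1.07 in males (1.39, adjusted p = 0.0219, exact permutation test). For 306 minus 300 they were 0.09 in females and 1.14 in males (-1.05, adjusted p = 0.0219, exact permutation test), and 306 was higher in 7 of 12 females and 7 of 7 males. Females made up 7 of 9 arrays with the higher ratio and 5 of 10 of the others. Within the 9 arrays the female minus male values were 6.34, 2.17 and -0.79 (exact permutation p = 0.0278, 0.0556 and 0.167, where the smallest possible is 0.0278), and within the other 10 they were 1.56, 0.58 and -1.08 (exact permutation p = 0.254, 0.0317 and 0.00794). With signals raised to buffer none of the 3 passed (adjusted p from 0.219 to 0.697, exact permutation test). The part of the array sets in these values was not tested beyond this.

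**Figure D4:**
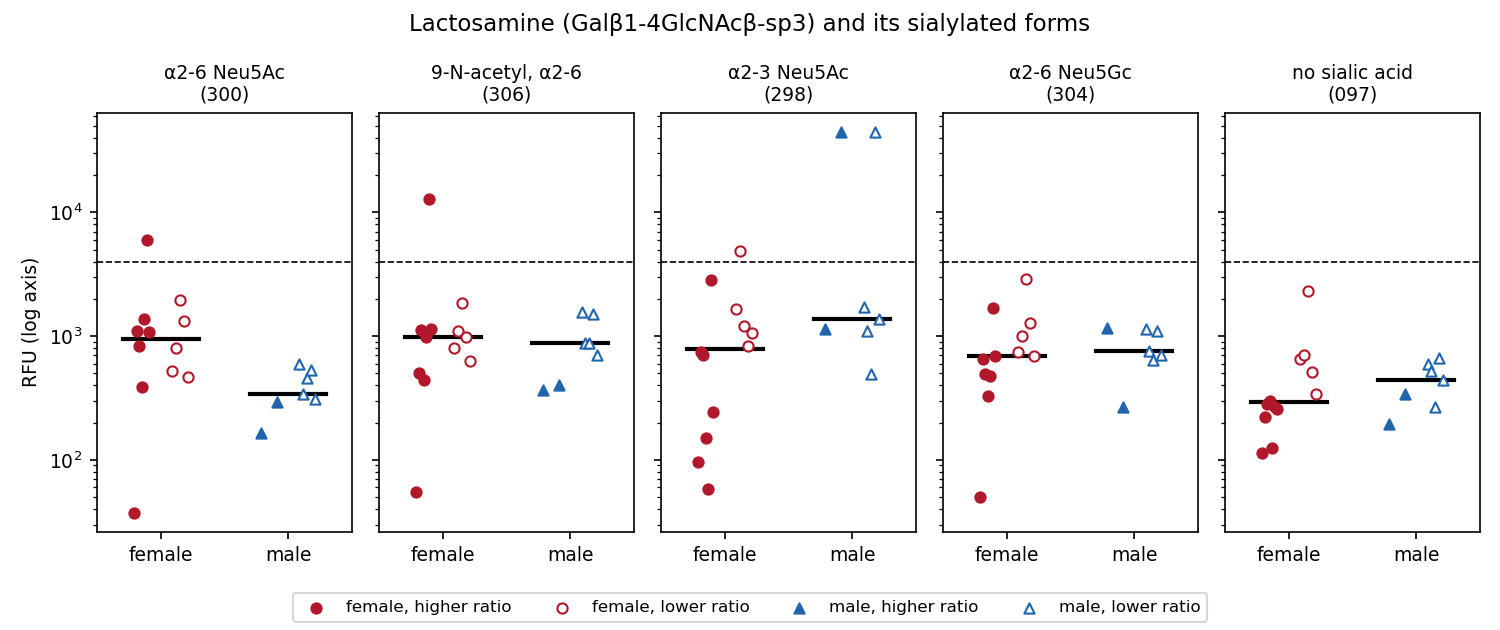
Signal of 6'SLN (300), its 9-N-acetyl form (306), 3'SLN (298), the Neu5Gc form (304) and lactosamine without sialic acid (097) in 12 females and 7 males (RFU on a log axis, 1 point per mouse, filled for arrays with the higher ratio of peptides 902 and 900 and open for the lower, black bars for medians, dashed line at 4000 RFU). For glycan 300 the female median is 955 RFU and the male median 340.5 RFU, and the groups overlap.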

How the data were processed

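Signals of 20 deposited arrays were read as labelled, 1 serum per array. The authors scanned the arrays and quantified them with ScanArray Express 4.00. The deposited intensity of a spot is its mean pixel intensity on the scanner's linear scale. For every spot the authors deposited background-subtracted intensity, local background and percent of saturated pixels as well. The deposited table of the whole series gives structures, a pooled intensity and the number of animals at 4000 RFU or more, which were not used for the results. The array headers list LOWESS normalization, which needs a second channel, and no scaling between arrays was applied.

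The RFU of a mouse is the median over 6 spots, with background left in. Values under 100 RFU were set to 100 before log2. Pairs were tested with sign flips, and intervals hold the differences that this test does not reject. Sexes were compared with limma 3.58.1 (R 4.3.3, prior variance dependent on the mean), with Benjamini-Hochberg adjustment over 419 compounds. Python 3.11.15, numpy 2.4.6 and scipy 1.17.1 were used. Steps were tested on simulated data. Alternatives covered the threshold, the spot summary, background, the log2 offset, quantile normalization, buffer, array sets and the identical arrays. Leaving out single mice and leaving out the third and sixth spots were chosen after seeing the data. The glycans, pairs and rules were chosen with earlier results of these data known. All 14 members are named, and other compounds only as their partners or as controls. The labels tie no mouse to a litter or cage, and p-values measure the spread between mice on 1 array each.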

Additional observations from a re-analysis of the deposited data

Results flagged for a closer look

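In the 7 males, the highest signal stood apart from the next for 2 of the 14 glycans. For Neu5Acα2-6GalNAcβ (205) male 53 had 1354 RFU and the next male 445 RFU, a gap of 0.732 of the whole range. For glycan 290 male BALB/c-106 had 754 RFU and the next male 370 RFU, a gap of 0.68 of the range. Both signals are below the threshold of 4000 RFU. The buffer medians of these arrays were 1290.5 RFU for mouse 53 and 2044.5 RFU for the other. Dixon's limit was applied to RFU without log2, and 14 groups were tested. Chance passes it in about 1 in 20 groups only where values are normally distributed. The gaps on log2 RFU were not tested.

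The 3 pairs with 6'SLN differed between the sexes in the test of the difference itself, by 3.56 for 300 minus 298, 1.39 for 300 minus 304 and -1.05 for 306 minus 300 (female minus male, log2). Without the third and sixth spots the values were 3.65, 1.50 and -1.09 (adjusted p = 0.0261, 0.0261 and 0.00377, exact permutation test). The array sets, which hold the sexes in unequal numbers, moved with these values as given beside them, and their part was not tested further.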

How the results depend on the processing

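The number of pairs past the threshold was 22, and 14 with signals below buffer raised to buffer. It was 16 on the arrays with the higher ratio alone, 24 on the others, and 19 to 22 under the other alternatives, with 21 to 24 when 1 mouse was left out. The pair 338 minus 089 turned to 0.35 (adjusted p = 0.0367, permutation test) on the arrays with the lower ratio, and 433 minus 289 to 0.0036 with signals raised to buffer. The number of bound glycans was 5, and 3 at a threshold of 8000 RFU, where 205 and 300 dropped out. With quantile normalization it was also 5, with 309 (1 mouse) in place of 205, and 170 was bound in 3 mice and 300 and 306 in 2 each. It was 3 to 5 when 1 mouse was left out, with 3 without female 42 or without female 65. No sex difference of the 14 glycans passed under any alternative, with 0 to 3 at an unadjusted p under 0.05. Females and males are different mice, so the sexes were not compared in pairs. Signals near buffer limit most of these comparisons: most of the 14 glycans were at or below it in most mice.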

Other observations

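The column of the deposited series table that is titled median lay close to the mean, and not the median, of the array values computed here. For 13 of the 14 glycans it was within 10% of the mean over the 20 deposited arrays, and for 2 of them within 10% of the median. Over the 418 compounds that could be matched the numbers were 394 and 72. For Neu5Acα2-6Galβ (170) the mean over arrays was 3948 RFU and the median 378.25 RFU. The deposited number of animals at 4000 RFU or more was 3 for glycan 170 and 1 for glycan 309, where 2 and 0 of the arrays reached that signal, and it equalled the number of arrays for the other 12 glycans.

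The biantennary N-glycan written with Sia2-6 (627) had a median of 193 RFU ± 88.5 (MAD, n = 19) and at most 402 RFU, and the same N-glycan without sialic acid (504) a median of 215.5 RFU ± 62.5 and at most 552.5 RFU.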
